A study of Mus musculus with 3 samples.

Results

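The muscle of the heart apex was compared with the whole soleus muscle by Iso-Seq, a long-read method in which a whole cDNA molecule is read at once. The heart muscle library (called cardiac below) and the soleus library came from male C57BL/6 mice aged 8 weeks, labelled wild type, with no treatment given in the labels. Each muscle had 1 library, and the number of mice behind it is not given. A library of the extensor digitorum longus (EDL), a fast leg muscle of mice of the same strain, sex and age, is given beside some values as context. Only cDNA of 5 to 10 kb was kept before sequencing, so the counts describe long cDNA molecules and not the whole transcriptome.

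Gene abundance was compared for the genes with 20 or more consensus reads in the pair of libraries. There were 473 such genes, of 3219 with a read in any of the 3 libraries and 2779 with a read in the pair. A consensus read merges full-length reads, each from a single sequenced molecule, that were judged to come from the same transcript. Exon use was compared for exonic parts, the pieces into which overlapping exons were divided, that 30 or more consensus reads covered in both libraries. With Ttn, Neb and Nrap left out, 1650 parts of 53 genes met this, of 27271 parts of 686 genes deposited.

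Heart and slow skeletal muscle share the sarcomere, but they build it from partly different gene copies and couple excitation to contraction through different channels. In heart muscle, calcium entering the cell opens ryanodine receptor 2, and desmosomes join cells end to end. In skeletal muscle, a voltage sensor in the surface membrane is coupled to ryanodine receptor 1, and nebulin runs along the thin filaments. Many long muscle transcripts also differ by the exons they keep and by where they start and end.

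The sequences below belong to the exon results. They were read from the GENCODE M21 transcripts on build GRCm38 and are written 5′ to 3′ on the gene's strand. The Lmo7 stretch, the 5′ extension of an exon that both muscles used, is shown because 0 soleus reads held it. In the Lmo7 line, lower case is part 18 and capitals are part 19. The Sptbn1 line is the coding stretch of a part that ends a shorter transcript.
Lmo7 parts 18 and 19, chr14:101884087-101884161, plus strand: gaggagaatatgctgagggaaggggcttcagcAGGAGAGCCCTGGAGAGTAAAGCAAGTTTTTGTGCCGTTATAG
Sptbn1 part 10, coding bases, chr11:30109005-30109088, minus strand: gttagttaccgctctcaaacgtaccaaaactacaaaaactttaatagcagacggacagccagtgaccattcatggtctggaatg

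Consensus reads in genes numbered 18302 in cardiac muscle and 17459 in soleus. Counts were scaled to a common total (RPM), and 1 read equalled 54.6 RPM in cardiac muscle and 57.3 RPM in soleus. Full-length reads numbered 96946 in cardiac and 117237 in soleus. Myh6 alone took 11.3% of the cardiac reads in genes. Marker genes fitted the tissue labels where long transcripts let them be seen. Of 20 cardiomyocyte genes, 16 had a read in the pair and 7 had 20 or more, of which 4 were called higher in cardiac muscle and 1, Myh7, in soleus. Of 14 slow-twitch genes, 4 had 20 or more, and Myh7 and Myom3 were called higher in soleus. Among all 473 genes with 20 or more reads, 3.38% were called higher in cardiac muscle and 4.86% in soleus. The short sarcomere transcripts Tnni3 and Actc1 had 2 and 1 reads in cardiac muscle and 0 in soleus, and Nppa and Myl7 had none in either library.

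Ratios of RPM, cardiac over soleus, were given exact 95% intervals. These take each consensus read as an independent draw, whatever number of full-length reads it merges. They cover that counting error only and do not bound ratios on full-length reads. The call used below required an interval wholly beyond 2-fold. Of the 473 genes, 16 were called higher in cardiac muscle (3.38%) and 23 higher in soleus (4.86%), 39 in all (8.25%). The other 434 were called in neither direction. The intervals of 34 genes lay wholly above 1 (7.19%) and those of 63 wholly below 1 (13.3%), which leaves 376 that held 1. The median log2 ratio over all 473 genes was -0.07. With 1 library a muscle there is no replicate check, so all of these statements compare these libraries.

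**Figure D1:**
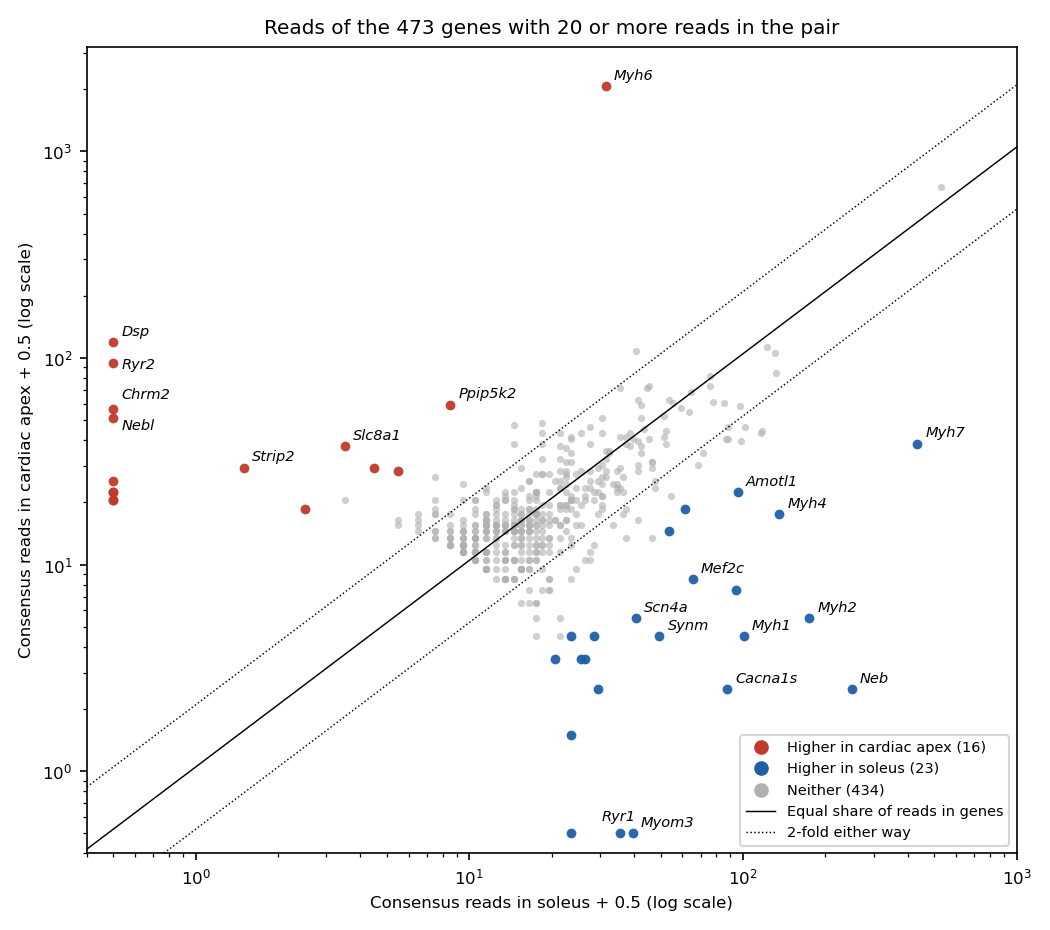
Consensus reads of each of the 473 genes in the cardiac apex (vertical axis) and soleus (horizontal axis), both on log scales with 0.5 added. Red points are the 16 genes called higher in cardiac apex and blue points the 23 called higher in soleus; the genes on the left edge had 0 soleus reads, and Myh6 stands alone at 2060 cardiac and 31 soleus reads.

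The myosin heavy chains, the motors of the thick filament, separated the muscles most by read number. Myh6, the alpha heavy chain of the adult mouse ventricle, had 2060 reads in cardiac muscle, 31 in soleus and 30 in EDL. Its ratio was 63.4 (95% interval 44.5 to 93.5). Myh7, the beta or slow chain, had 38 reads in cardiac muscle, 433 in soleus and 18 in EDL, a ratio of 0.0837 (0.0584 to 0.117). The fast chains were also lower in cardiac muscle. Myh2 had 5 reads in cardiac muscle and 174 in soleus, Myh1 had 4 and 100, and Myh4 had 17 and 135, in the same order. Their ratios were 0.0274, 0.0382 and 0.120.

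Among reads of the sarcomeric myosin heavy chains, Myh6 made up 96.9% of 2127 in cardiac muscle (exact 95% interval 96.0 to 97.6) and 3.51% of 884 in soleus (2.39 to 4.94). In soleus, Myh7 made up 49.0%, Myh2 19.7%, Myh4 15.3% and Myh1 11.3%. In cardiac muscle, Myh7 was 1.79% (1.27 to 2.44). These genes are close copies of each other, so reads may be split between them. Beside its 31 Myh6 reads, the soleus library held 3 of Slc8a1 and 0 of Dsp, Ryr2 and Chrm2. In cardiac muscle these last 3 had 119, 94 and 56 reads, far fewer than the 2060 of Myh6. Beside its 17 Myh4 reads, the cardiac library held 5 of Scn4a, 2 each of Neb and Cacna1s, and 0 of Ryr1. Reads carried between the barcoded libraries, and their share in these low counts, were not tested.

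Myosin ratios lay farther from 1 on full-length reads. Over the exonic part best covered in each library, Myh6 had 34450 full-length reads in cardiac muscle and 78 in soleus, a ratio of 534. Each Myh6 consensus read there stood for 16.7 full-length reads in cardiac muscle and 2.44 in soleus. Myh7 had 317 full-length reads in cardiac muscle and 28722 in soleus, a ratio of 0.0133. The reads behind each Myh7 consensus read numbered 7.55 in cardiac muscle and 66.3 in soleus.

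Genes of calcium release were called in opposite directions for their heart and skeletal copies. Ryr2, which releases calcium in heart muscle, had 94 cardiac reads against none in soleus or EDL. Against a floor of 3 reads it was at least 29.9-fold higher. Ryr1, its skeletal copy, had 0 cardiac, 35 soleus and 100 EDL reads. Its ratio with the floor was 0.0818 (interval up to 0.106). Cacna1s, the skeletal voltage sensor that Ryr1 is coupled to, had 2 reads in cardiac muscle and 87 in soleus, a ratio of 0.0219 (0.00261 to 0.0816). Its heart counterpart Cacna1c had 13 reads in cardiac muscle and 0 in soleus, under the 20 reads needed for a call.

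Ion transport genes were called in either direction. Scn4a, the sodium channel of skeletal muscle, had 5 reads in cardiac muscle and 40 in soleus, a ratio of 0.119 (0.0367 to 0.302). Slc8a1, which exports calcium in exchange for sodium, had 37 reads in cardiac muscle and 3 in soleus, a ratio of 11.8 (3.73 to 59.6). Of 20 genes of skeletal excitation-contraction coupling, 6 reached 20 reads. Cacna1s, Scn4a and Ryr1 were called higher in soleus and none in cardiac muscle, against 4.86% and 3.38% of all 473 genes. Srl, which binds calcium in the sarcoplasmic reticulum, had 17 reads in each library, and the potassium channel gene Kcnj2 had 13 and 11. The list's median log2 ratio was -2.49.

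Receptor and cyclic nucleotide genes were called mostly in the cardiac direction. Chrm2, the M2 muscarinic receptor through which the vagus nerve slows the heart, had 56 reads in cardiac muscle and 0 in soleus, at least 17.8-fold higher. Pde1c, a calmodulin-activated phosphodiesterase, had 22 and 0 reads, and Adcy6, an adenylyl cyclase, had 18 and 2 (ratio 8.59, 2.06 to 76.3). Pde4d, a cyclic AMP phosphodiesterase, went the other way with 2 reads in cardiac muscle and 29 in soleus, a ratio of 0.0658 (0.00761 to 0.260). Akap6 and Akap13, which anchor signalling enzymes, had 27 reads each in cardiac muscle and 22 and 18 in soleus. Of 31 genes of heart receptors, channels and signalling, 9 reached 20 reads. Cardiac muscle was higher in 6 of these and soleus in 1, against 3.38% and 4.86% of all 473 genes. The median log2 ratio was 3.35 with 0.5 reads added, and 2.82 with the floor of 3 reads at 0.

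The desmosome genes Dsp and Dsg2 were called higher in cardiac muscle. Dsp, which encodes desmoplakin, the link from desmosomes to intermediate filaments, had 119 cardiac reads and 0 in both leg muscles. Its ratio with the floor was 37.8 (interval from 30.3). Dsg2, the desmosomal cadherin desmoglein, had 20 reads in cardiac muscle and 0 in both leg muscles, a ratio of 6.36 with the floor (interval from 4.71). The other 3 measured genes of the intercalated disc were not called, with intervals below 1. Xirp2 had 34 reads in cardiac muscle and 71 in soleus, Xirp1 had 23 and 47, and Nrap had 43 and 116. Cxadr, an adhesion receptor of the disc, had 16 and 0 reads, too few to be measured. Of 20 intercalated disc and desmosome genes, 5 reached 20 reads, with a median log2 ratio of -1.08. The 2 calls in cardiac muscle stand against 3.38% of all 473 genes.

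Among thin filament and M-band genes, Nebl was called higher in cardiac muscle, and Neb, Myom3 and Alpk3 in soleus. Nebl, the small nebulin relative of heart muscle, had 51 cardiac, 0 soleus and 2 EDL reads. Its ratio with the floor was 16.2 (interval from 12.7). Neb, nebulin itself, had 2 reads in cardiac muscle, 249 in soleus and 451 in EDL, a ratio of 0.00766 (9.23e-04 to 0.0280). Myom3, a myomesin of the M-band, had 0 reads in cardiac muscle and 39 in soleus, a ratio of 0.0734 with the floor (interval up to 0.0946). Its relatives did not follow it, since Myom1 had 73 and 75 reads and Myom2 had 51 and 30. Alpk3, a kinase-like protein of the M-band, had 18 reads in cardiac muscle and 61 in soleus, a ratio of 0.281 (0.157 to 0.483). Its call was lost under median-of-ratios scaling and under the total without the 10 most abundant genes.

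Of 37 genes of the M-band and of giant and large sarcomere proteins, 16 reached 20 reads. The calls were 1 in cardiac muscle and 3 in soleus, with a median log2 ratio of -0.93. Over all 473 genes, 3.38% and 4.86% were called. Ttn, the giant elastic protein titin, had 672 reads in cardiac muscle and 527 in soleus, a ratio of 1.22 (1.08 to 1.37). Full-length reads were counted at the exonic part best covered in each library, which need not be the same part. There Ttn had 648 reads in cardiac muscle and 2160 in soleus, a ratio of 0.363 (0.332 to 0.396). This is the opposite direction, but it sets cover of a single part of a giant transcript against consensus reads of the whole gene. None of the 17 measured genes of the costamere, the dystrophin complex and the membrane skeleton was called (median log2 ratio 0.40), a count near the background of 8.25%. The intervals of 2 lay above 1 and those of 3 below 1. Full-length reads made 57 cardiac and 52 soleus calls over all 463 genes they measured. Of the 17, 6 met the call in cardiac muscle on full-length reads and 2 in soleus. Among them, Dmd, which encodes dystrophin, had 27 reads in cardiac muscle and 17 in soleus, and its full-length ratio was 5.48 (3.10 to 10.3).

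Tbx20, a transcription factor of the heart, had 20 reads in cardiac muscle and 0 in both leg muscles. Its ratio with the floor was 6.36 (interval from 4.71). Mef2c, a transcription factor of striated muscle, had 8 reads in cardiac muscle, 65 in soleus and 38 in EDL, a ratio of 0.117 (0.0486 to 0.245). Its relative Mef2a had 30 and 41 reads. Esrrg, an orphan nuclear receptor, had 12 reads in cardiac muscle and 28 in soleus, a ratio of 0.409 (0.189 to 0.830) that missed the call. On full-length reads the interval of its ratio was 0.0536 to 0.173, which met it. Of 22 genes of cardiac transcription factors, 4 reached 20 reads, with 1 call in each direction and a median log2 ratio of -0.88. The shares called over all 473 genes were 3.38% in cardiac muscle and 4.86% in soleus. Gata4 was read in cardiac muscle alone, in 2 reads.

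Of the 10 measured genes that act on microtubules, 3 were called higher in soleus and none in cardiac muscle. Among all 473 genes these shares were 4.86% and 3.38%. Ttll7, which adds glutamate chains to tubulin, had 1 read in cardiac muscle and 23 in soleus (ratio 0.0415, 0.00101 to 0.255). Agbl1, of the carboxypeptidase family that removes such chains, had 0 reads in cardiac muscle and 23 in soleus. Its ratio with the floor was 0.124 (interval up to 0.166). Kif5b, the heavy chain of a kinesin motor, had 4 and 23 reads, a ratio of 0.166 (0.0417 to 0.486). Its call was lost under median-of-ratios scaling (0.174) and under the total without the 10 most abundant genes (0.179). The other 7 measured members of this list of 24 genes were not called. Clasp1, which stabilises microtubule ends, had 48 reads in cardiac muscle and 18 in soleus, with an interval of 1.45 to 4.65. The list's median log2 ratio was -0.68.

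The remaining calls in cardiac muscle included Ppip5k2, Osbpl8, Strip2, Pik3r1 and Gm10435. Ppip5k2, a kinase that makes inositol pyrophosphates, had 59 reads in cardiac muscle and 8 in soleus, a ratio of 7.04 (3.35 to 17.1). Gm10435, annotated as an antisense gene, had 22 cardiac reads and 0 in both leg muscles. The authors' deposited counting command sets no strand option, so its reads may not be told apart from those of a gene on the other strand. Osbpl8, a lipid transfer protein, had 29 and 4 reads, and Strip2, a striatin-interacting protein, had 29 and 1. Pik3r1, the regulatory subunit of phosphoinositide 3-kinase, had 28 and 5 reads, a ratio of 5.34 (2.04 to 17.7).

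The remaining calls in soleus included Synm and Ano5. Synm, the intermediate filament protein synemin, had 4 reads in cardiac muscle and 49 in soleus (ratio 0.0779, 0.0204 to 0.212). Ano5, an anoctamin tied to membrane repair in skeletal muscle, had 3 and 25 (0.114, 0.0221 to 0.375). Amotl1, an angiomotin relative, had 22 and 95 reads, and Zak, a kinase gene listed by RefSeq as Map3k20, had 14 and 53. Inpp4b, a phosphoinositide phosphatase, had 3 and 20 reads, a call lost under the same scalings as that of Alpk3, and Etl4 had 3 and 26. The genes 3425401B19Rik and 1110002E22Rik had 7 and 94 and 4 and 28 reads. Synm overlaps Ttc23 on the opposite strand, which had 4 reads in each library.

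The 16 genes called higher in cardiac muscle held 14.7% of the cardiac reads in genes and 0.309% of those of soleus. Of these 16 genes, 9 had 0 soleus reads and 8 had 0 EDL reads. Those 9 passed the read minimum on cardiac reads alone, and such counts meet the call by construction. Read shares of called genes likewise restate the calls, and 2060 of the 2689 cardiac reads were Myh6. The 23 genes called higher in soleus held 0.907% of cardiac reads and 10.9% of soleus reads. Each of the 23 was also read in EDL, with 3 to 451 reads, and all but 3 in cardiac muscle. Those 3, Agbl1, Myom3 and Ryr1, passed the read minimum on soleus reads alone and likewise meet the call by construction. For some of the 23, EDL lay near or below cardiac muscle. RPM in EDL and cardiac muscle was 252 and 219 for Kif5b, 151 and 164 for Inpp4b, and 908 and 2076 for Myh7. For others, such as Neb (22748 in EDL, 14262 in soleus), EDL lay above soleus. At the edge of the rule, the genes just inside were Pik3r1, Adcy6 and Osbpl8 in cardiac muscle and Inpp4b, Alpk3 and Kif5b in soleus. Those just outside included Lnpep (20 and 3 reads), Sptbn1 (108 and 40) and Fhod3 (47 and 14) on the cardiac side, and Dag1 (13 and 46) and Nrap on the soleus side.

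**Figure D2:**
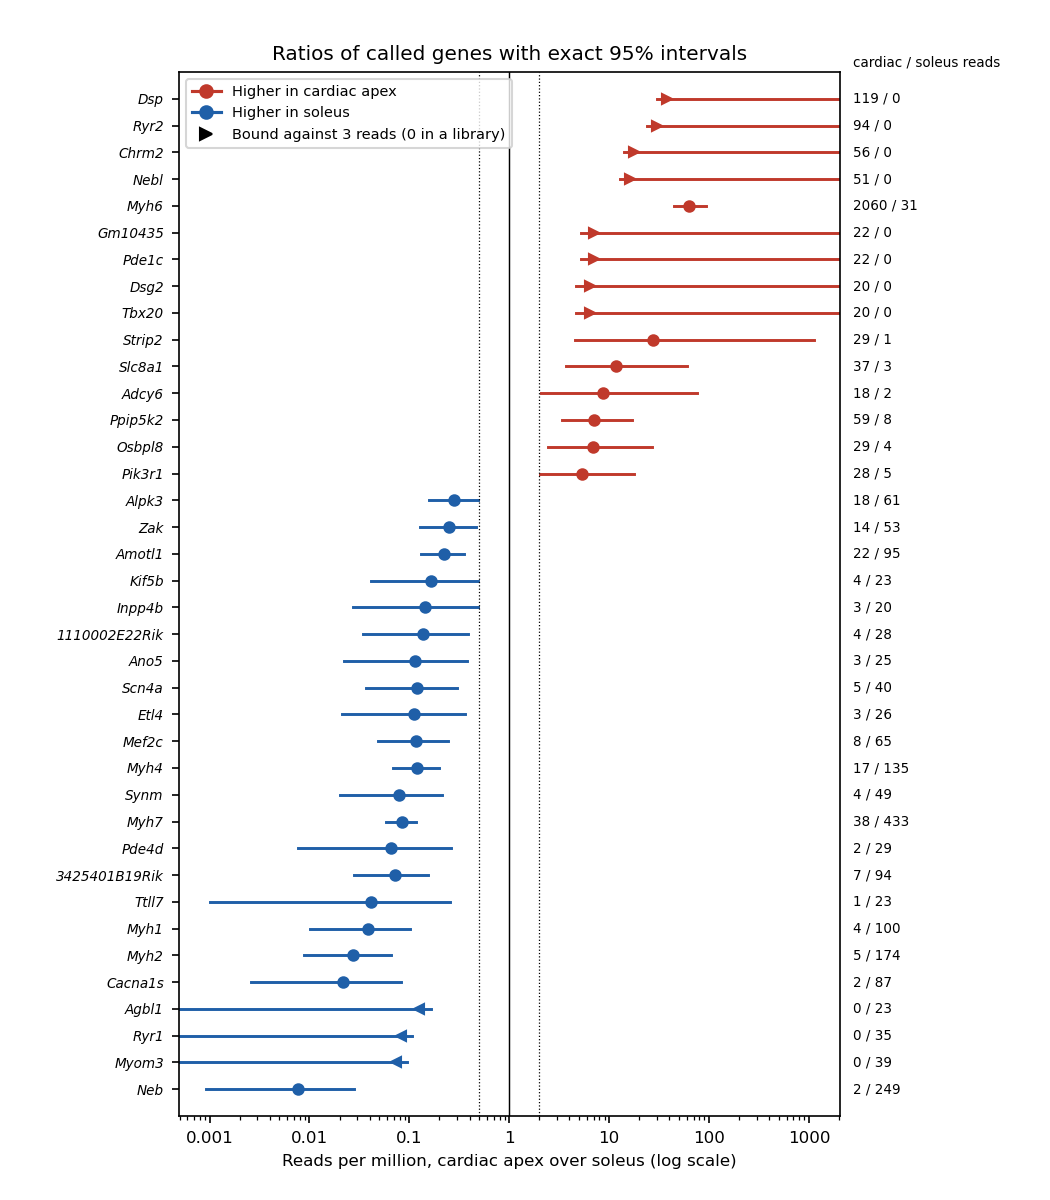
Ratio of RPM, cardiac apex over soleus, on a log scale, for the called genes described here, with exact 95% intervals and with cardiac and soleus read numbers at the right. Triangles, named bounds in the key, are ratios with 3 reads put in where a library had 0. Bars that reach the frame run on beyond it, dotted lines mark 2-fold, and Neb has the lowest ratio (0.00766).

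The metabolic and RNA-binding lists held 12 measured genes, and none was called, a count near the background of 8.25%. On full-length reads 1 met the call in each direction, where 57 of all 463 genes did in cardiac muscle and 52 in soleus. The 4 measured genes of glycogen and glucose use had a median log2 ratio of -0.11. Hk2, a hexokinase, had 62 reads in cardiac muscle and 53 in soleus. The 3 measured genes of fatty acid and mitochondrial metabolism had a median of -0.19, and Gpam, an enzyme of triglyceride synthesis, had 112 and 122 reads. Of the 5 measured splicing and RNA regulators, Rbm20, which controls titin splicing, had 43 reads in cardiac muscle and 18 in soleus, an interval of 1.29 to 4.20.

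The 7 lists of other cell types held 9 measured genes, and 2 lists held none. None of the 9 was called, where 8.25% of all 473 genes were, so a count of 0 is near the background. The intervals of 2 matrix genes lay above 1 and that of Plin4 below 1. On full-length reads 3 of the 9 met the call in cardiac muscle, where 57 of all 463 genes did. Summed reads were 153 in cardiac muscle and 123 in soleus for fibroblast and matrix genes, 76 and 58 for endothelial genes, and 21 and 22 for smooth muscle and pericyte genes. They were 23 and 16 for blood and immune genes, 60 and 101 for adipocyte genes, 0 and 1 for nerve genes and 4 and 2 for satellite cell genes. The adipocyte sum was nearly all Plin4, with 58 and 97 reads. The neuromuscular junction list had 21 and 43 reads, of which the receptor kinase Musk had 0 and 16. In tissue libraries such as these, fewer cells of a type and less RNA per cell cannot be told apart.

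**Figure D3:**
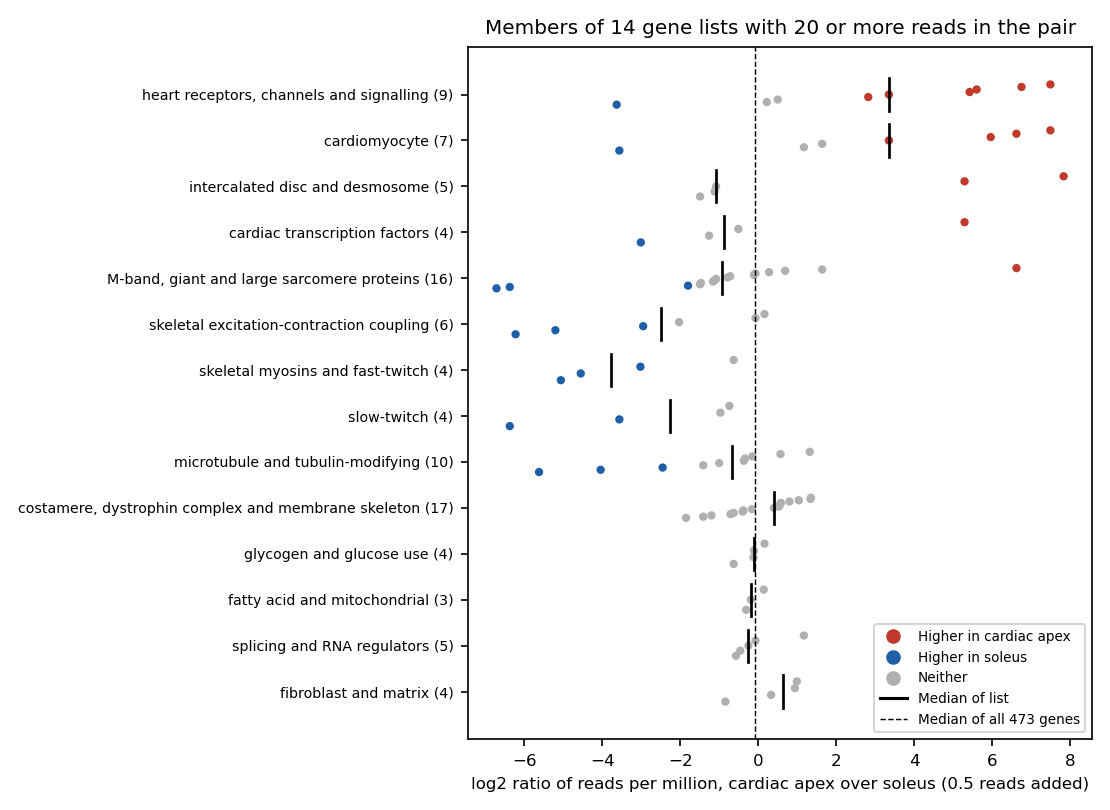
log2 ratio of RPM, cardiac apex over soleus with 0.5 reads added, for each member of 14 gene lists with 20 or more reads in the pair (number in brackets). Bars are list medians and the dashed line is the median of all 473 genes (-0.07). The heart receptor and cardiomyocyte medians both lie at 3.35, the value of Slc8a1, which is in both lists. The fast-twitch median lies at -3.79.

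Promoters were described for a fast skeletal and a heart myosin, whose genes were called in opposite directions. Both come from the RefSeq table on GRCm38.p6 and run from 250 bases before to 50 after the gene start, 5′ to 3′. Capitals mark every match, on either strand, to any of 4 motifs. The first was the MCAT motif, spelled CATTCC. The second was a motif of GATA factors, spelled AGATAA. The third was the TATA box, spelled TATAAA, and the last was the MEF2 motif. In Myh4, a TATAAA match overlaps the MEF2 match. The promoters of Ryr2 and Ryr1, genes also called in opposite directions, were searched too and held 0 matches to these motifs.
Myh6, chr14:54966558-54966857, minus strand: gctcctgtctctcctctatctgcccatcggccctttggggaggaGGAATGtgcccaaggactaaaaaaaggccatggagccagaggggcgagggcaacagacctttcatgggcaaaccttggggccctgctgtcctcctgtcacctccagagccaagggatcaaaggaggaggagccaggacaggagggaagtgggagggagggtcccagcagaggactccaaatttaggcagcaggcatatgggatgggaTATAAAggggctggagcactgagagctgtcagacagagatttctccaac
Myh4, chr11:67237562-67237861, plus strand: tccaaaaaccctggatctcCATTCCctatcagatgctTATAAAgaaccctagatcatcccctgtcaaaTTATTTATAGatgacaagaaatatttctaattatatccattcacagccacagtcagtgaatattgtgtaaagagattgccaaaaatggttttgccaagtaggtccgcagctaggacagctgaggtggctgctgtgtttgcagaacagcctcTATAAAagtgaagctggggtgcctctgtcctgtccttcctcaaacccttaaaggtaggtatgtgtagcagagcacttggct

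The table held promoters for 12 of the 16 genes called higher in cardiac muscle (18 promoters) and 21 of the 23 called higher in soleus (27 promoters). CATTCC was in 3 promoters of the cardiac genes and 5 of the soleus genes, and in 14.7% of all 32851 promoters. AGATAA was in 4 and 2, and in 11.2% of all. TATAAA was in 2 and 8, and in 13.6% of all. The MEF2 motif was in 0 and 4, and in 3.19% of all, the 4 being those of Alpk3, Myh1, Myh4 and Myom3. These are letter matches and describe no binding.

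For exon use, the share of covering reads that held a part was tested between the libraries by Fisher's exact test (two-sided), adjusted by Benjamini-Hochberg over all 1762 parts tested, Ttn and Nrap included. A part was called when the share differed by 20 percentage points or more in the same direction, with an adjusted p under 0.05, on consensus reads and again on full-length reads. Full-length reads merged into 1 consensus read share its exons and are not independent, so consensus values lead here. Of the 1650 parts, 10 were called (0.606%), at 8 sites of 6 genes. Cardiac reads used 6 of them more and soleus reads 4.

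Most parts were used alike. On consensus reads, 1316 parts were held by 95% or more of reads in both libraries and 181 by 5% or less in both. In 38 of the 53 genes, no part differed by 10 points or more. Parts absent from the authors' annotation, written with a u, made up 57 of the 1650 and 4 of the 10 called, so that 7.02% of them were called. Parts of 51 nt or less made up 188 and 6, or 3.19% called. In the genes left out of these totals, 38 of 61 tested Ttn parts were called and 0 of 51 Nrap parts. With them, 48 of 1762 parts were called (2.72%).

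**Figure D4:**
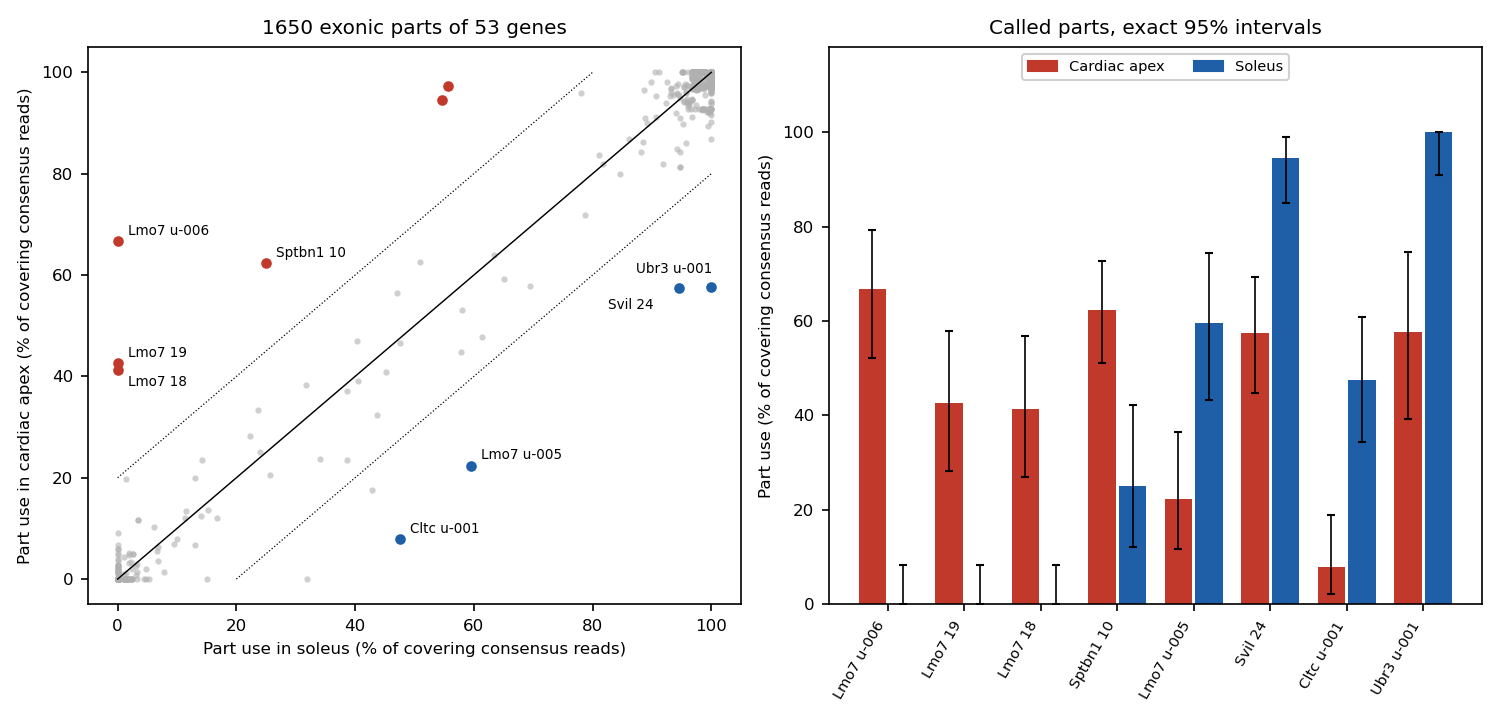
Left, percent of covering consensus reads that held each of 1650 exonic parts in cardiac apex (vertical) and soleus (horizontal), with called parts in red (more used in cardiac apex) or blue (more used in soleus) and dotted lines at 20 points. Right, called parts of Cltc, Lmo7, Sptbn1, Svil and Ubr3 with exact 95% intervals; Lmo7 u-006 was held by 66.7% of cardiac and 0% of soleus reads.

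Lmo7, which encodes a LIM domain protein of cell junctions, differed at 3 sites although its abundance did not meet the call. These sites share covering reads and are not independent. Part u-006 (chr14:101915893-101915934, 42 nt, no exon in GENCODE M21) was held by 34 of 51 cardiac and 0 of 42 soleus consensus reads. That is 66.7% (52.1 to 79.2) in cardiac muscle and 0% (0 to 8.41) in soleus. On full-length reads it was 193 of 227 in cardiac muscle and 0 of 160 in soleus. The adjusted p was 2.89e-11 on consensus and 2.59e-72 on full-length reads. In EDL, 4 of 36 consensus reads held it.

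Lmo7 parts 18 and 19, printed above, extend the next exon at its 5′ end and belong to retained-intron transcripts of the annotation. The exon itself begins with part 20, which 48 of 48 cardiac and 42 of 42 soleus consensus reads held. Part 19 was held by 20 of 47 cardiac and 0 of 42 soleus consensus reads, a difference of 42.6 points (adjusted p 1.17e-05). On full-length reads it was held by 164 of 223 in cardiac muscle and 0 of 160 in soleus (adjusted p 7.45e-56). Part 18 gave 19 of 46 and 0 of 42. The authors' deposited lists place part 18 among the curated differences and part 19 among the artifacts.

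Coverage of Lmo7 changed at the same extension. The part before it, u-004, was covered by 28 cardiac and 42 soleus consensus reads, and part 18 by 46 and 42. On full-length reads, cover was 60 in cardiac muscle and 160 in soleus at u-004, and 220 and 160 at part 18. Cardiac cover thus stepped up there, by more on full-length than on consensus reads, while soleus cover stayed level. Part 18 was held by 19 cardiac consensus reads and 161 cardiac full-length reads, numbers close to that step. The share held there thus follows where cardiac reads begin, and inclusion in reads from upstream is not shown. Downstream of the extension, u-005 (chr14:101886128-101886331, 204 nt) was held by 11 of 49 cardiac and 25 of 42 soleus consensus reads. The difference was -37.1 points (adjusted p 0.0172). On full-length reads u-005 was held by 16.9% in cardiac muscle and 74.4% in soleus.

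Sptbn1 encodes beta-II spectrin of the membrane skeleton, which has a long form with a pleckstrin homology domain and a short form that ends before it. Part 10 (chr11:30106785-30109088, 2304 nt), whose coding bases are printed above, was held by 53 of 85 cardiac and 9 of 36 soleus consensus reads. The exact intervals of these shares were 51.2 to 72.6% in cardiac muscle and 12.1 to 42.2% in soleus, with an adjusted p of 0.00957. On full-length reads the shares were 44.6% and 17.4% (adjusted p 6.87e-04). Beyond it, at part 8, cover was 38 reads in cardiac muscle and 28 in soleus.

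**Figure D5:**
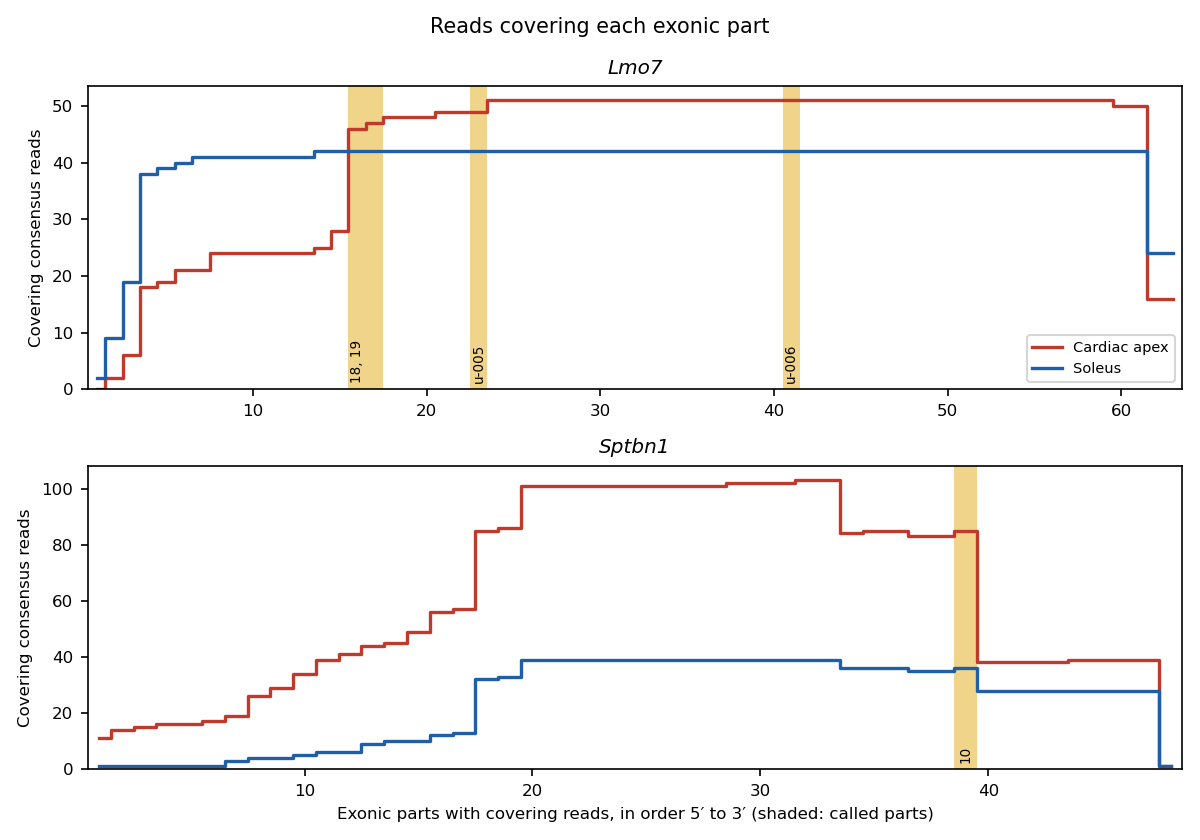
Consensus reads covering each exonic part of Lmo7 and Sptbn1 in cardiac apex (red) and soleus (blue), with parts in order from 5′ to 3′ and called parts shaded. Cardiac cover of Lmo7 steps up at parts 18 and 19, and beyond part 10 of Sptbn1 cover is 38 cardiac and 28 soleus reads at part 8.

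The sites in Cltc, Svil and Ubr3 were more used in soleus. Cltc encodes the clathrin heavy chain, which forms the coat of endocytic vesicles. Its part u-001 (chr11:86696176-86696218, 43 nt, no exon in GENCODE M21) was held by 4 of 51 cardiac and 28 of 59 soleus consensus reads, a difference of -39.6 points (adjusted p 1.94e-04). Full-length shares were 2.27% in cardiac muscle and 52.7% in soleus, and EDL stood at 63.8%.

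Svil encodes supervillin, which binds actin and myosin at the membrane. Its part 24 (chr18:5057275-5057439, 165 nt, coding) was held by 39 of 68 cardiac and 52 of 55 soleus consensus reads, or 57.4% (44.8 to 69.3) and 94.5% (84.9 to 98.9), in the same order. The adjusted p was 5.30e-05, and full-length shares were 57.3% and 93.8%.

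Ubr3 encodes a ubiquitin ligase. Its part u-001 (chr2:69971402-69971434, 33 nt, no exon in GENCODE M21) was held by 19 of 33 cardiac and 39 of 39 soleus consensus reads (adjusted p 1.11e-04). Full-length reads gave 28 of 53 and 53 of 53. The intervals of the shares were 39.2 to 74.5% in cardiac muscle and 91.0 to 100% in soleus. At these 3 sites the EDL share lay nearer to soleus than to cardiac muscle, at 31 of 62 consensus reads for Cltc, 98.1% for Svil and 97.7% for Ubr3.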

How the data were processed

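The authors aligned consensus reads to mm10 (GRCm38) and deposited raw counts per gene made with htseq-count, and raw counts of consensus and full-length reads covering and holding each exonic part, per the file headers and the deposited protocol sheet. STAR 2.5.0am is named in the submitters' processing notes. The other deposited values used, part positions and the authors' curated and artifact lists, are the authors' own; positions counted from 0 are printed from 1. Reads in no single gene (9.78% in cardiac muscle, 8.64% in soleus) stayed out of totals.

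Counts were compared as RPM with exact conditional binomial 95% intervals (scipy 1.17.1), against a floor of 3 counts at 0. Shares have Clopper-Pearson intervals. Intervals cover counting error of the reads counted, taken as independent, and not of molecules. Consensus reads merge full-length reads, and molecular identifiers were not used. A floor stands in for 0 and is not an interval bound. No p-value across genes was computed. The functions were tested on simulated data. The named genes are all called genes, list members with 20 or more reads, the 3 nearest uncalled genes each way and every gene with a called part. Some genes are not reported here, and the counts include them. The members and lists were chosen with earlier results of these data known.

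Alternatives were 3 other scalings (among them edgeR 4.0.16 TMM), full-length reads, other read, fold, coverage and difference thresholds, single counts, and leaving out artifact-listed parts.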

Additional observations from a re-analysis of the deposited data

How the results depend on the processing

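Each of the 16 calls in cardiac muscle held under median-of-ratios and TMM scaling, under the total without the 10 most abundant genes (which adds Lnpep, 17 calls) and on full-length reads. The 23 calls in soleus became 20 under median-of-ratios scaling and under the total without the abundant genes, without Alpk3, Inpp4b and Kif5b, whose cardiac over soleus ratios were then 0.295 to 0.304, 0.150 to 0.155 and 0.174 to 0.179. Every log2 ratio shifts up by 0.07 under median-of-ratios scaling, 0.01 under TMM and 0.11 under the total without the abundant genes. Under these scalings no cardiac call could therefore be lost and no soleus call gained. Full-length reads, more numerous, made 57 cardiac and 52 soleus calls among 463 genes; 21 of the 23 soleus genes could be measured and all 21 were called. With 40 or more reads the counts were 7 and 13, and with intervals beyond 1-fold 34 and 63. With 10 or more reads 35 genes were higher in soleus, with no filter 36, and with intervals beyond 4-fold 12. Exonic parts numbered 16 at a coverage of 20, 2 at a coverage of 50 and 4 at a difference of 40 points. The 10 parts were all called on consensus reads alone (11 calls, adding Nedd4 u-001) and on full-length reads alone (14 calls, adding Ablim1 27 and 28, Cltc 6 and Opa1 11). Without artifact-listed parts 9 remained. Each stricter or looser threshold admits fewer or more genes or parts by construction. The calls that changed under the scalings follow from their upward shift, and why they shift this way was not tested. No paired analysis was possible because each muscle had 1 library. Depth limited calls to genes with 20 or more reads.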

Other observations

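Below the coverage of 30, 2 further genes had called parts when 20 covering consensus reads sufficed in both libraries. Limch1, which encodes an actin-binding activator of non-muscle myosin, had 5 such parts next to each other (u-005 to u-009), none in the authors' annotation. Part u-005 (chr5:66975549-66975819, 271 nt) was held by 0 of 28 cardiac and 31 of 43 soleus consensus reads, and by 0 of 82 and 68 of 83 full-length reads. Of the EDL consensus reads, 24 of 29 held it. Cardiac shares of the 5 parts were 0 to 3.45%, and soleus shares 62.8 to 72.1%. Parts u-006 and u-009 are 5401 and 5701 nt long, against cDNA of 5 to 10 kb. Reads counted as holding these 2 parts may not contain them in full, which was not tested. The authors' deposited lists place u-009 among the artifacts. Map4, a microtubule-associated protein, had a coding exon of 3180 nt, part 16, that was held by 11 of 22 cardiac and 61 of 67 soleus consensus reads. The adjusted p of Fisher's exact test was 0.00672 on consensus reads, and full-length shares were 36.7% and 92.9%.

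Several genes with 10 to 19 reads in the pair met the 2-fold rule when the read minimum was lowered to 10, and they were chosen after their values were seen. Cacna1c had 13 reads in cardiac muscle and 0 in soleus, Cxadr 16 and 0, and Pde3a 14 and 0. Musk had 0 reads in cardiac muscle and 16 in soleus, Tnnt3 0 and 18, Mybpc1 0 and 11, and Myl1 0 and 10.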
